A study of Mus musculus with 12 samples.

Results

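Drd1, Drd2, Adora2a, Ppp1r1b, Rgs9, Gpr6 and Pde10a are widely used as marker genes of striatal projection neurons, the output neurons of the striatum, and were followed here in hypothalamus libraries. They were chosen by name and found by their Ensembl IDs, and all 7 were present among the 78334 gene IDs of the count table. The 12 libraries were poly(A) RNA-seq libraries of the hypothalamus of male C57BL/6 mice. Mice with obesity were fed a high-fat diet (HFD) with 60% of its energy from fat from 8 weeks of age and were gavaged daily for 28 days from 16 weeks of age with resveratrol at 2.25 mg/kg (Ob + RSV, n = 3), with 200 mg/kg of aged garlic extract (Ob + EAE, n = 2), curcumin at 50 mg/kg (Ob + CUR, n = 1) or vehicle (Ob, n = 3). Control mice (C, n = 3) stayed on a standard diet and received vehicle. The labels do not say whether a library holds the tissue of 1 mouse or several, and p-values measure the spread between these libraries.

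Striatal projection neurons release GABA and fall into a pair of classes. Neurons of the direct pathway carry the dopamine receptor encoded by Drd1, which couples to Golf and raises cAMP. Neurons of the indirect pathway carry the receptor encoded by Drd2, which couples to Gi and lowers cAMP, together with the adenosine receptor encoded by Adora2a and the orphan receptor encoded by Gpr6, both of which raise cAMP. Both classes hold Ppp1r1b (DARPP-32, which inhibits protein phosphatase 1 once phosphorylated by protein kinase A), Rgs9 (a GTPase-activating protein that shortens Gi signalling) and Pde10a (a phosphodiesterase that degrades cAMP and cGMP). The striatum is not part of the hypothalamus, and several of these genes are also used by hypothalamic neurons, Drd2 among them. No striatum library was in the series, so the levels could not be set against that tissue.

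Promoter sequences from RefSeq (GRCm38.p6, from 250 bases before to 50 bases after a start site) were matched by symbol for 5 of the 7 genes, with 7 windows in all. They were searched on both strands for TGACGTCA, the 8 letters bound by CREB, a transcription factor that cAMP signalling activates. The first 5 of them, TGACG, which the 8 letters contain on both strands, were searched for as well. The search is a description of letters, and the 3 windows shown are that of Gpr6, the gene with a match, and those of Pde10a, the gene with the largest difference between groups. The capitals in the Gpr6 window mark the match, which begins 78 bases before the start, and neither Pde10a window held the 5 letters.
Gpr6, chr10:41072241-41072540, minus strand: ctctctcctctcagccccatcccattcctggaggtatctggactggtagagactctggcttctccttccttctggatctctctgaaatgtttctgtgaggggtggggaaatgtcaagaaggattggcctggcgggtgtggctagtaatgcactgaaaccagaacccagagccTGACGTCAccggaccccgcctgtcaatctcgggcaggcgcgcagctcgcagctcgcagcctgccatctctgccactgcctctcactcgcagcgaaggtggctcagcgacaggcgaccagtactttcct
Pde10a, first start, chr17:8801495-8801794, plus strand: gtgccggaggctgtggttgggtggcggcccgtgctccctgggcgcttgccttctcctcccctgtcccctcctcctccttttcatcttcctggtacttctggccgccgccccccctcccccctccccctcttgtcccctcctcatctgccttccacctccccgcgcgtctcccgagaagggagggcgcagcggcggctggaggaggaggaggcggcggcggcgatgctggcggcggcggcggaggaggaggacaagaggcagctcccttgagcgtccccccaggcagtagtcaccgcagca
Pde10a, second start, chr17:8849735-8850034, plus strand: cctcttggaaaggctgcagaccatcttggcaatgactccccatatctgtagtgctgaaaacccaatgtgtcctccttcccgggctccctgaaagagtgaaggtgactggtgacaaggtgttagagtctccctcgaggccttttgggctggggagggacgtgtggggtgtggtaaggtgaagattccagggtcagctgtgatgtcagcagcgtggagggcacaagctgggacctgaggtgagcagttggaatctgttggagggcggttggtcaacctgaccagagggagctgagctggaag
Of the 32851 windows in the RefSeq table, 20.8% held the 5 letters and 1.79% held the 8 letters. The first Pde10a window had a GC content of 71.3% and the second had 56.7%, against a median of 52.7% over all windows.

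The libraries held between 15655156 and 26284661 counted reads, and 3 reads, the limit that a count of 0 allows, were worth at most 0.192 CPM (reads per 1000000 counted reads). Each of the 7 genes was counted in every library, with 13 reads (Adora2a, Ob + RSV replicate 2) as the fewest and 1504 (Pde10a, Ob + EAE replicate 2) as the most. Between 24450 and 38081 gene IDs were detected per library. The 3 libraries with the fewest were Ob + RSV replicate 2, C replicate 2 and Ob replicate 1. In Ob + RSV replicate 2, 7.30% of the detected gene IDs had under 10 reads, against 20.3% to 43.5% in the other libraries. The Ob + EAE pair differed from each other far less than any other replicate pair (mean chi-square per gene of 7.54, against 25.6 to 87.9). Reads per gene are bulk values, in which fewer cells of a type and less RNA per cell cannot be told apart.

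Per kilobase of exon, Rgs9, Ppp1r1b and Drd2 were the most abundant of the genes, with means over 12 libraries of 7.82, 6.41 and 6.27 CPM per kilobase (RPKM). Pde10a followed at 3.46 RPKM and Gpr6 at 3.43 RPKM. The length used was that of all annotated exon bases of a gene, 12849 for Pde10a and 2547 for Drd2. It may exceed that of the transcripts present. In CPM, Pde10a (mean 44.5) stood above Ppp1r1b (18.8) and Drd2 (16.0). Drd1 averaged 1.19 RPKM and Adora2a 0.615 RPKM, the lowest. On this scale Drd2 stood above Drd1 in every library, and which cells carried these reads was not tested. The Drd2 level was 2.79 times that of Drd1 in Ob + RSV replicate 3 and 20.8 times in Ob replicate 1, with a median of 5.58, all on the RPKM scale. Adora2a, which shares the indirect pathway with Drd2, stayed at 0.0464 to 0.126 times the RPKM level of Drd2.

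**Figure D1:**
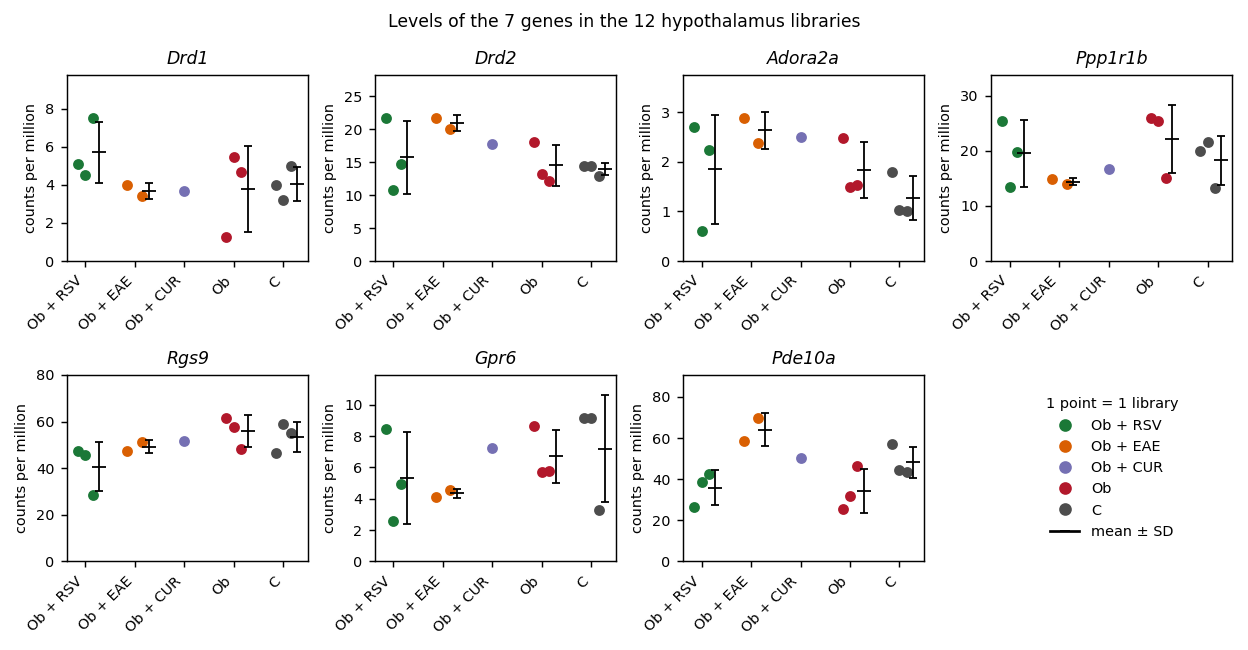
Level of each of the 7 genes in CPM (vertical axis, from 0) in the 12 libraries, by group (horizontal axis). Points are libraries, bars are the mean ± SD of groups with more than 1 library. Pde10a stood between 58.5 and 69.8 CPM in Ob + EAE, above the 25.3 to 46.2 CPM of Ob.

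Drd1, the dopamine receptor of the direct pathway, had 5.10, 4.50 and 7.53 CPM in Ob + RSV, 3.98 and 3.39 CPM in Ob + EAE, 3.70 CPM in Ob + CUR, 1.24, 5.45 and 4.66 CPM in Ob and 4.00, 3.19 and 4.98 CPM in C. The highest library (Ob + RSV replicate 3) was 6.09 times the lowest (Ob replicate 1, 24 reads), and without that low library the Ob pair lay inside the range of the other groups.

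Drd2, the dopamine receptor of the indirect pathway, had 21.6, 10.7 and 14.8 CPM in Ob + RSV, 21.7 and 20.0 CPM in Ob + EAE, 17.7 CPM in Ob + CUR, 18.0, 13.3 and 12.1 CPM in Ob and 14.4, 14.5 and 12.8 CPM in C. The C libraries were close together, and the Ob + RSV libraries spanned nearly the whole range of the series. Adora2a, the adenosine receptor of the same neurons, had 2.70, 0.597 and 2.23 CPM in Ob + RSV, 2.89 and 2.37 CPM in Ob + EAE, 2.49 CPM in Ob + CUR, 2.47, 1.49 and 1.53 CPM in Ob and 1.79, 1.02 and 1.01 CPM in C. It was high and low in much the same libraries as Drd2. Gpr6, the orphan receptor, had 8.45, 2.57 and 4.94 CPM in Ob + RSV, 4.12 and 4.55 CPM in Ob + EAE, 7.22 CPM in Ob + CUR, 8.66, 5.72 and 5.75 CPM in Ob and 9.16, 9.16 and 3.26 CPM in C. Its C libraries spanned more than its Ob libraries did.

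Ppp1r1b (DARPP-32) had 25.5, 13.4 and 19.7 CPM in Ob + RSV, 14.8 and 13.9 CPM in Ob + EAE, 16.7 CPM in Ob + CUR, 26.0, 25.4 and 15.1 CPM in Ob and 20.0, 21.6 and 13.2 CPM in C. Groups of 3 libraries each held a low library near 13 to 15 CPM. Exon bases of Ppp1r1b are shared with an antisense gene, 1700003D09Rik, and no source used here says whether the counting used strand, so its reads may include that transcript. Rgs9, the GTPase-activating protein, had 47.4, 45.8 and 28.6 CPM in Ob + RSV, 47.3 and 51.1 CPM in Ob + EAE, 51.6 CPM in Ob + CUR, 61.6, 57.7 and 48.4 CPM in Ob and 46.4, 58.8 and 55.2 CPM in C. It was the least variable of the genes, with 1 low library, Ob + RSV replicate 3. Pde10a, the phosphodiesterase, had 26.4, 38.7 and 42.5 CPM in Ob + RSV, 58.5 and 69.8 CPM in Ob + EAE, 50.1 CPM in Ob + CUR, 25.3, 31.7 and 46.2 CPM in Ob and 57.0, 44.4 and 43.6 CPM in C. Both Ob + EAE libraries were above all others.

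The coefficient of variation over the 12 libraries ran from 17.2% for Rgs9 to 39.9% for Adora2a. Counting error alone would give 3.15% for Rgs9 and 16.1% for Adora2a, so the spread between libraries exceeded counting error for each, as it did for the other 5 genes (23.5% to 38.3%, against 3.33% to 10.8%). The biological coefficient of variation that edgeR estimated over the 12 libraries was 20.2% to 52.4% for the 7 genes, and its median over all genes tested was 73.5%. These are genes at unlike levels, since the median of the average log2 CPM was 0.01 over all genes tested, against 0.995 to 5.65 for the 7.

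Read as a measure of striatal tissue, the 7 genes would be looked at for a joint level, and they did not move together across libraries. No library was the highest for more than 2 of the 7 genes, and Ob replicate 1 was the highest for 2 (Ppp1r1b and Rgs9) and the lowest for 2 others (Drd1 and Pde10a). Ob + RSV replicate 2, the library with the fewest detected gene IDs and the smallest share of them under 10 reads, was the lowest for 3, namely Drd2, Adora2a and Gpr6. The mean deviation of the 7 genes from their own averages ran from −0.40 in that library to 0.19 in Ob + RSV replicate 1 on the log2(CPM + 1) scale, so the extremes lay within 1 group. The summed level of the genes ran from 116.3 to 165.2 CPM.

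**Figure D2:**
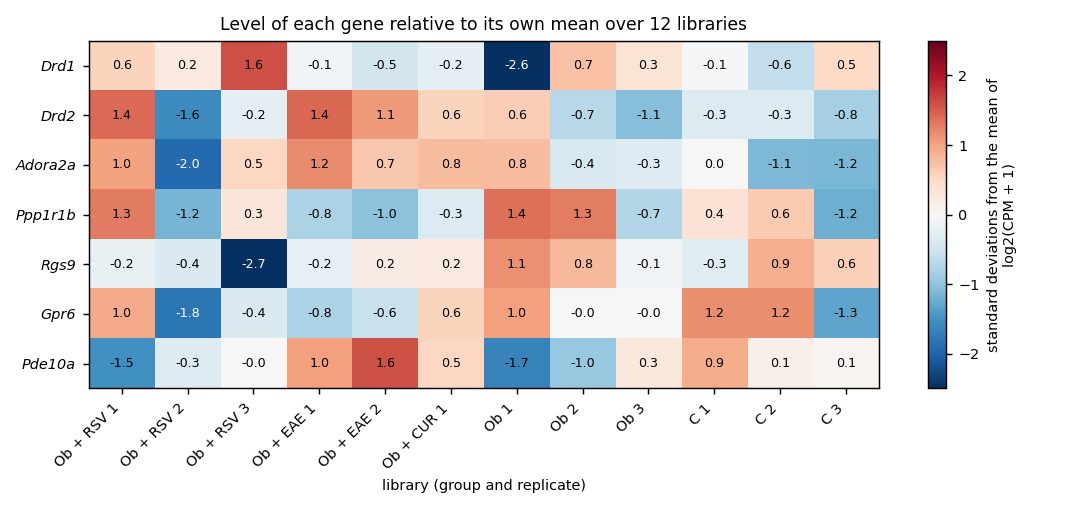
Level of each gene (rows) in each library (columns), in standard deviations from that gene's mean over the 12 libraries on the log2(CPM + 1) scale, with red above and blue below the mean. No column is of 1 colour: Ob replicate 1 is high for Ppp1r1b and Rgs9 and low for Drd1 and Pde10a.

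Over the 21 pairs of genes, Spearman's rho on log2(CPM + 1) across the 12 libraries was above 0 in 11 pairs and below 0 in 10, with a median of 0.049. Permutation p-values (100000 permutations, two-sided) were adjusted over the 21 pairs. Drd2 and Adora2a, a pair of receptors of the indirect pathway, followed each other most closely, with Pearson's r = 0.88 (p = 0.00022, adjusted p = 0.00462) and rho = 0.90 (p = 0.00019, adjusted p = 0.00399), and r was 0.84 without the 2 libraries farthest from the median of Drd2. With levels centred on group means, over the 11 libraries without Ob + CUR, rho was 0.81 (adjusted p = 0.0293). Centring ties the values of a group to each other, which the permutations did not allow for, so that p may be too small. Without each library in turn, on uncentred levels, rho was 0.87 to 0.94. Without both Ob + EAE libraries it was 0.87 with an adjusted p of 0.0506. Ppp1r1b and Gpr6 had r = 0.76 (p = 0.00536, adjusted p = 0.0563) and rho = 0.80 (p = 0.00313, adjusted p = 0.0329), with r = 0.69 without the 2 libraries farthest from the median of Ppp1r1b. With levels centred on group means their rho was 0.75 (adjusted p = 0.0395, with the same limit). On uncentred levels the adjusted p was under 0.05 in only 6 of the 12 sets that left out 1 library. It was above 0.05 without any 1 of the Ob + RSV or Ob + EAE libraries or C replicate 3 (up to 0.121), and was 0.309 without both Ob + EAE libraries.

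**Figure D3:**
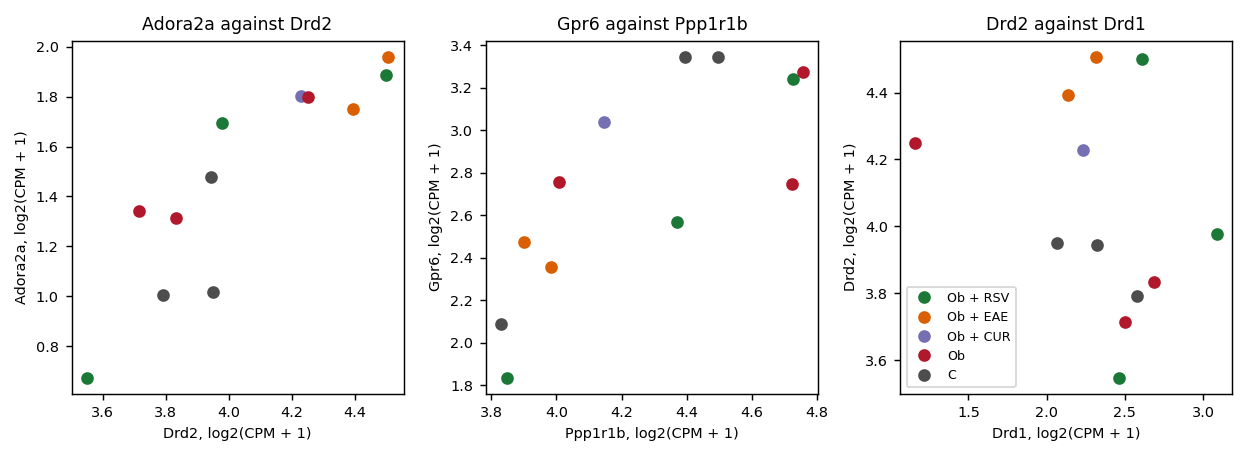
Adora2a against Drd2, Gpr6 against Ppp1r1b and Drd2 against Drd1, each axis in log2(CPM + 1), with 1 point per library coloured by group. The first pair rises together (rho = 0.90), the second does so with more scatter (rho = 0.80) and the third does not (rho = −0.32).

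The other 19 pairs did not pass. Drd1 and Drd2, the defining receptors of the direct and indirect pathways, had r = −0.31 (p = 0.355, adjusted p = 0.792) and rho = −0.32 (p = 0.309, adjusted p = 0.592), and r was −0.31 without the 2 libraries farthest from the median of Drd1. Ppp1r1b and Pde10a, which both classes of neurons carry, had r = −0.69 (p = 0.0141, adjusted p = 0.0989) and rho = −0.54 (p = 0.0751, adjusted p = 0.526), with r = −0.43 without the 2 farthest libraries. Drd1 and Rgs9 had r = −0.66 (p = 0.0552, adjusted p = 0.290) and rho = −0.47 (p = 0.128, adjusted p = 0.592). That relation rested on Ob replicate 1 and Ob + RSV replicate 3, since r was −0.08 without them.

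In Ob vs. C, the effect of the HFD, none of the 7 genes passed the test. Pde10a had the largest distance from 0 relative to its error, with a mean of 34.4 ± 10.7 CPM in Ob and 48.3 ± 7.51 CPM in C (SD, n = 3 each) and a log2 fold change (log2FC) of −0.46 (SE 0.24, edgeR unadjusted p = 0.0602, adjusted p = 1). Drd1 averaged 3.78 ± 2.24 CPM in Ob and 4.06 ± 0.900 CPM in C (log2FC −0.07, SE 0.48), and Drd2 averaged 14.5 ± 3.13 CPM in Ob and 13.9 ± 0.915 CPM in C (log2FC 0.11, SE 0.29). The 95% interval of the Drd1 difference was −1.02 to 0.87, for Drd2 it was −0.47 to 0.69 and for Rgs9 −0.32 to 0.55. With edgeR's quasi-likelihood test, 0 of the 7 were called (adjusted p under 0.05 with an absolute log2FC of at least 1), against 0% of 33534 genes. At an unadjusted p under 0.05 the count was 0 of 7, against 2.75% of genes, and the libraries of the groups failed to overlap for 0 of 7, against 7.64% of genes. DESeq2 also called 0 of the 7 and 0 of all genes.

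In Ob + RSV vs. Ob, the effect of RSV on the HFD, Rgs9 was the gene set apart. It averaged 40.6 ± 10.5 CPM in Ob + RSV and 55.9 ± 6.79 CPM in Ob (SD, n = 3 each), with all 3 Ob + RSV libraries below all 3 Ob libraries, a log2FC of −0.50 (SE 0.22, 95% interval −0.94 to −0.06) and an edgeR unadjusted p of 0.0341, but an adjusted p of 1. Ob + RSV replicate 3 was the lowest of the series, and without it the log2FC was −0.30 (unadjusted p = 0.206). The same library had the highest levels of Chat, Slc5a7, Slc18a3 and Lhx8, genes of cholinergic neurons, as given below. Without Ob replicate 1 the log2FC of Rgs9 was −0.39 (unadjusted p = 0.137). Drd1 averaged 5.71 ± 1.60 CPM in Ob + RSV and 3.78 ± 2.24 CPM in Ob (log2FC 0.57, SE 0.48, 95% interval −0.38 to 1.51), and the log2FC was 0.16 without Ob replicate 1. Of the 7 genes 0 were called by edgeR and 0 by DESeq2, against 0% of genes by edgeR. At an unadjusted p under 0.05 the count was 1 of 7, against 3.16%, and the groups failed to overlap for 1 of 7, against 6.68%.

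In Ob + RSV vs. C, Pde10a averaged 35.8 ± 8.39 CPM in Ob + RSV and 48.3 ± 7.51 CPM in C (SD, n = 3 each). All 3 Ob + RSV libraries lay below all 3 C libraries, with a log2FC of −0.43 (SE 0.24, edgeR unadjusted p = 0.0767, adjusted p = 1). Rgs9 averaged 40.6 ± 10.5 CPM in Ob + RSV and 53.5 ± 6.42 CPM in C (log2FC −0.38, SE 0.22, unadjusted p = 0.0981), and 1 Ob + RSV library lay within the C range. Neither difference passed. Of the 7 genes 0 were called by edgeR, against 0% of genes, and 0 by DESeq2. At an unadjusted p under 0.05 the count was 0, against 2.87%, and the groups failed to overlap for 1 of 7, against 5.43%. Ob and C libraries enter more than 1 of these comparisons, so their values are not independent of each other.

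Ob + EAE vs. Ob held the largest difference. Pde10a averaged 64.2 ± 8.03 CPM in Ob + EAE (n = 2) and 34.4 ± 10.7 CPM in Ob (n = 3, SD), 1.79-fold higher, with a log2FC of 0.84 (SE 0.24, 95% interval 0.37 to 1.31) and an edgeR unadjusted p of 0.00143. Its adjusted p was 0.0556, so it did not pass. Both Ob + EAE libraries lay above all Ob libraries. Without Ob replicate 3, the highest of its group for Pde10a, the log2FC was 1.07 and the adjusted p 0.0128, a call. In that fit 1172 of all 35653 genes were called. The adjusted p was 0.307 without Ob replicate 1 and 0.131 without Ob replicate 2. The log2FC was 0.98 without Ob + EAE replicate 1 and 0.75 without Ob + EAE replicate 2. Libraries of the other groups were not left out singly. Without the 3 libraries with the fewest detected genes the log2FC was 0.70 and the adjusted p 0.375. The adjusted p was 0.0146 with genes of at least 1 read in total, 0.0196 with DESeq2 and 0.0450 with upper quartile scaling, where the log2FC of 0.86, 0.84 and 0.87 stayed under the minimum of 1.

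Ppp1r1b, which averaged 14.4 ± 0.630 CPM in Ob + EAE and 22.2 ± 6.15 CPM in Ob, went the other way (log2FC −0.71, SE 0.32, edgeR unadjusted p = 0.0330, adjusted p = 0.299). Gpr6 averaged 4.33 ± 0.305 CPM in Ob + EAE and 6.71 ± 1.69 CPM in Ob (log2FC −0.71, SE 0.49, adjusted p = 0.606), and Drd2 averaged 20.9 ± 1.22 CPM in Ob + EAE and 14.5 ± 3.13 CPM in Ob (log2FC 0.45, SE 0.30, adjusted p = 0.591). These 4 genes were those whose groups did not overlap, 4 of 7 against 38.7% of genes, 2 of them higher and 2 lower in Ob + EAE. Drd1, Adora2a and Rgs9 overlapped, with log2FC of −0.09, 0.44 and −0.26. Of the 7, 0 were called by edgeR, against 1.84% of 36164 genes. DESeq2 also called 0, against 905 of the 36164 genes, and gave no adjusted p for Adora2a. At an unadjusted p under 0.05 the count was 2 of 7, against 13.4%. With exact permutation tests (two-sided) the smallest p that 3 libraries against 3, or 2 against 3, can give is 0.1. None of the 28 tests could therefore pass, whatever the values. The closeness of the Ob + EAE pair, given above, enters every value of this comparison.

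**Figure D4:**
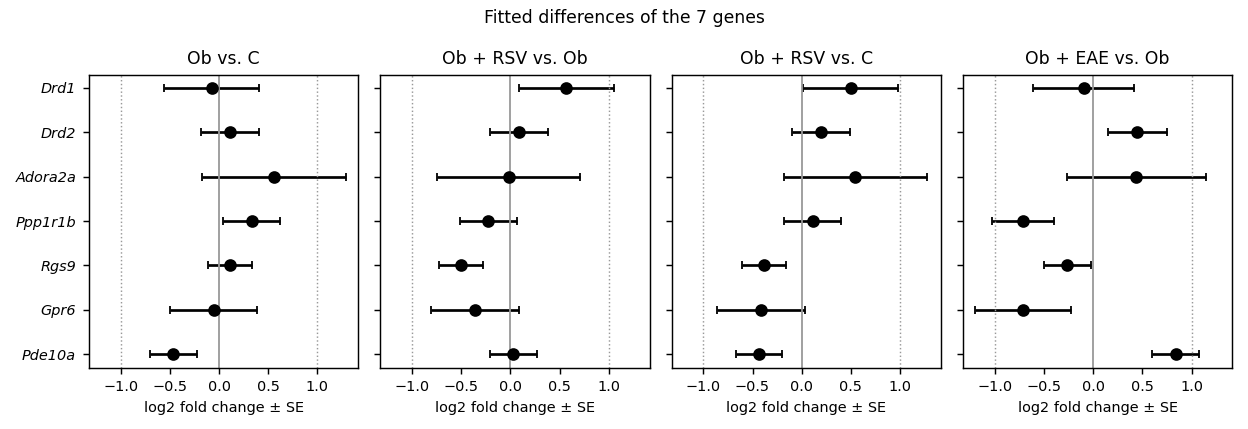
Log2 fold change ± SE (edgeR, horizontal axis) of the 7 genes (vertical axis) in the 4 comparisons, with a solid line at 0 and dotted lines at −1 and 1. Pde10a in Ob + EAE vs. Ob, at 0.84, lies farthest from 0 relative to its error, and Ppp1r1b and Gpr6 in that comparison lie on the other side of 0.

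In Ob + CUR, a single library with no test, Pde10a (50.1 CPM) lay above the Ob range of 25.3 to 46.2 CPM and Adora2a (2.49 CPM) lay just above that of 1.49 to 2.47 CPM. The other 5 genes lay within the Ob range.

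The 7 genes differ in span, from the first to the last base with introns included. Pde10a spans 461 kb in GENCODE vM21, Rgs9 72.8 kb, Drd2 67.6 kb, Adora2a 17.9 kb, Ppp1r1b 9.39 kb, Drd1 4.52 kb and Gpr6 2.31 kb. Among the 16879 genes with a mean of at least 1 CPM and a known span (95.2% of such genes), split by span into 4 bins of equal size, the median log2FC of Ob + EAE vs. Ob was 0.35 in the longest bin, 0.05 in the next, −0.19 in the one after it and −0.38 in the shortest. Pde10a (0.84) lay 0.49 above the median of the longest bin, at percentile 87.1 of its genes. Ppp1r1b, in the bin next to the shortest, lay at percentile 12.2, Gpr6, in the shortest, at percentile 30.2, and Rgs9, in the longest, at percentile 11.5. In Ob vs. C the order was the reverse, with medians of −0.17 in the longest and 0.17 in the shortest bin, and Pde10a (−0.46) lay at percentile 11.9 of the longest.

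This balance differed from library to library. The median deviation of the longest bin minus that of the shortest, on the log2(CPM + 1) scale, was −0.33, −0.14 and 0.17 in Ob + RSV, 0.27 and 0.45 in Ob + EAE, 0.40 in Ob + CUR, −0.52, −0.24 and −0.10 in Ob and 0.13, 0.05 and −0.16 in C. Pde10a followed it over the 12 libraries, with r = 0.90 (permutation p = 0.0001, adjusted p = 0.0007) and rho = 0.88 (permutation p = 0.00026, adjusted p = 0.00182), adjusted over the 7 genes, and r was 0.80 without the 2 libraries farthest from the median. The permutations did not allow for the groups or for the closeness of the Ob + EAE pair, so these p may be too small. This relation was not computed with levels centred on group means or without both Ob + EAE libraries. For Ppp1r1b r was −0.51 (permutation p = 0.0894, adjusted p = 0.313) and rho −0.47 (permutation p = 0.127, adjusted p = 0.444). For the other 5 genes r was −0.34 to 0.26, with none passing. The part of this balance in the Pde10a differences was not tested. It was computed after the Pde10a values had been seen.

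**Figure D5:**
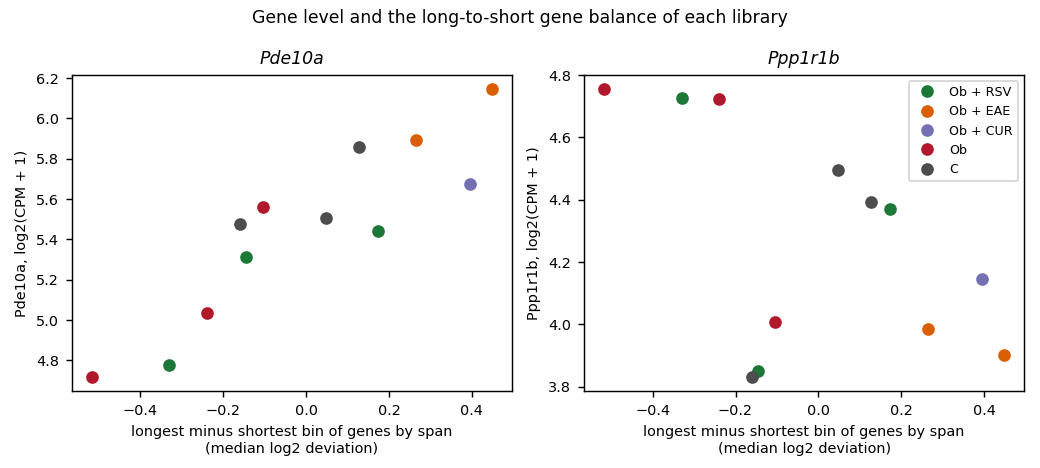
Level of Pde10a (left) and Ppp1r1b (right) in log2(CPM + 1) against the median log2 deviation of the longest minus the shortest bin of genes by span, with 1 point per library coloured by group. Pde10a rises with it (r = 0.90), with both Ob + EAE libraries at the high end and Ob replicate 1 at the low end.

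Another 29 genes known from striatal projection neurons, led in level by Ptpn5, Adcy5 and Pde1b, had a narrower range, in a mean over more genes. Their mean deviation ran from −0.18 in Ob + RSV replicate 2 to 0.17 in Ob + EAE replicate 1 on the log2(CPM + 1) scale. None was called in any comparison. At an unadjusted p under 0.05, 0 of 29 passed in Ob vs. C, against 2.75% of all genes (median log2FC −0.13, against 0.00). In Ob + RSV vs. Ob 2 were higher (6.90%, against 3.16%, median 0.01, against 0.00), and in Ob + RSV vs. C 1 was higher (3.45%, against 2.87%, median −0.07, against 0.00). In Ob + EAE vs. Ob 6 were higher and 2 lower (27.6%, against 13.4%, median 0.08, against 0.05). The 2 in Ob + RSV vs. Ob were Meis2, a homeobox transcription factor (log2FC 1.31, SE 0.37, edgeR adjusted p = 1), and Scn4b, a sodium channel subunit (log2FC 1.17, SE 0.37, adjusted p = 1). Meis2 had 12.4, 17.9 and 69.8 CPM in Ob + RSV and 11.5, 14.8 and 12.6 CPM in Ob, so 1 library, Ob + RSV replicate 3, held most of its difference. Scn4b had 19.1, 18.0 and 37.7 CPM in Ob + RSV and 12.2, 11.8 and 8.18 CPM in Ob.

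In Ob + EAE vs. Ob, the 4 of the 29 with the smallest p were Strn (log2FC 0.81, edgeR adjusted p = 0.0662), Adcy5, the main striatal adenylyl cyclase (0.70, adjusted p = 0.0820), Gnal, the alpha subunit of Golf (0.57, adjusted p = 0.142), and Penk, the enkephalin precursor of the indirect pathway (−0.58, adjusted p = 0.173). In Ob vs. C the smallest p were those of Scn4b (log2FC −0.65, edgeR adjusted p = 1), Gng7, Gnal and Strn, and none was under 0.05 before adjustment. In Ob + RSV vs. C they were those of Meis2 (log2FC 0.79, adjusted p = 1), Slc35d3, Rarb and Scn4b.

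Among 25 genes of dopamine and cAMP signalling, led in level by the protein kinase A subunits Prkar1a, Prkar1b and Prkacb, 1 was called in Ob + EAE vs. Ob, where 1.84% of all genes were. Pde4d, a phosphodiesterase that degrades cAMP, was higher in Ob + EAE, with 34.3 and 47.6 CPM against 9.58, 11.4 and 9.33 CPM in Ob (log2FC 1.94, SE 0.34, edgeR adjusted p = 0.00486). Its level was also 46.2 CPM in Ob + CUR and 31.1, 23.7 and 9.58 CPM in C. In that comparison 6 of the 25 were higher and 3 lower at an unadjusted p under 0.05 (36.0%, against 13.4% of all genes, median log2FC 0.16, against 0.05 over all genes). In Ob vs. C 0 were higher and 2 lower (8.00%, against 2.75%), and the count was 0 in both comparisons of Ob + RSV. Adcy5, Gnal, Gng7 and Pde1b belong both to these 25 genes and to the other 29, so the counts of the lists are not independent. The part of the balance of long and short genes in the values of either list was not tested.

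Genes of neighbouring regions and other cells were followed beside the 7 genes, as sums and mean deviations per library. The hypothalamus list, led by Avp, Oxt and Pmch, summed to 501.7 CPM in Ob + CUR, the lowest, and 3274 CPM in Ob replicate 2, the highest. Avp was at 8.42 CPM in Ob + CUR, against 249.4 to 1464 CPM in the other 11 libraries, and Oxt at 4.04 CPM. In Ob + EAE vs. Ob, 0 of the 18 hypothalamus genes were higher and 7 lower at an edgeR unadjusted p under 0.05. That was 38.9%, against 13.4% of all genes, with a median log2FC of −0.43, against 0.05. Of the 18, 1 was called lower, against 1.84% of all genes. The thalamus list, led by Slc17a6, Rora and Tcf7l2, ran from 242.7 CPM in Ob replicate 2 to 647.3 CPM in C replicate 1. C replicate 1 stood apart within C, whose other libraries had 373.2 and 398.9 CPM (mean deviations of 1.12, −0.01 and 0.33). Of the 8 genes, at an unadjusted p under 0.05, 6 were lower in Ob vs. C, against 2.75% of all genes, and 5 in Ob + RSV vs. C, against 2.87%, and none passed after adjustment. The summed levels of both lists varied far more between libraries than that of the 7 genes. That last sum is led by Rgs9 and Pde10a (means of 50.0 and 44.5 CPM), which did not rise together (rho = −0.23). Single genes of the 7 spanned more, with a highest library of 1.97 (Ppp1r1b) to 6.09 times (Drd1) the lowest.

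The striatal interneuron list, led by Sst, Nos1 and Pvalb, had its highest mean deviation in Ob + RSV replicate 3 (0.94 on the log2(CPM + 1) scale) and its next in Ob replicate 3 (0.51), while its summed level was highest in C replicate 3 (448.6 CPM). In Ob + EAE vs. Ob, 1 of its 9 genes was higher and 4 lower at an edgeR unadjusted p under 0.05. That was 55.6%, against 13.4% of all genes, with a median log2FC of −1.18, against 0.05. Of the 9, 1 was called lower, against 1.84% of all genes. Members of the list differed within Ob + RSV replicate 3. Chat, the acetylcholine-synthesising enzyme, was at 18.7 CPM (median of the 12 libraries 1.38), and the transporters Slc5a7 and Slc18a3 were at 38.2 CPM (median 3.42) and 3.82 CPM (median 0.335). Sst, Npy, Pvalb and Gbx2 were below their medians there, Sst at 146.1 CPM (median 182.7) and Npy at 7.35 CPM (median 23.3). The pallidum and septum list, led by Zic1, Nkx2-1 and Nts, had mean deviations of 0.73 and 0.61 in the same libraries. Of its genes, Gbx1 (9.88 CPM) and Lhx6 (49.6 CPM) were at their highest in Ob + RSV replicate 3 and Nkx2-1 (16.8 CPM, median 38.5) at its lowest. Lhx8, a transcription factor of cholinergic forebrain neurons, had 24.6 CPM in Ob + RSV replicate 3, 7.49 CPM in Ob + RSV replicate 2 and 16.4 CPM in Ob replicate 3, and 0.0761 to 3.91 CPM in the other 9 libraries. The mean deviation of the 7 genes was 0.01 in Ob + RSV replicate 3 and −0.07 in Ob replicate 3. Drd1 was at its highest in Ob + RSV replicate 3 and Rgs9 at its lowest. The part of such cells in the Drd1, Rgs9 and Meis2 values was not tested.

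The dopamine neuron list of 7 genes, led by Ddc, Slc18a2 and Th, had its lowest mean deviation in Ob + RSV replicate 3 (−0.64) and its highest in C replicate 1 (0.45). Slc6a3, the dopamine transporter, was higher in Ob + EAE vs. Ob, with 16.2 and 14.4 CPM in Ob + EAE and 2.99, 6.22 and 4.73 CPM in Ob (log2FC 1.65, SE 0.45, edgeR adjusted p = 0.0473). It was the 1 of the 7 genes of this list that was called, against 1.84% of all genes. Its level was also 14.6, 6.71 and 4.94 CPM in C, 6.57 CPM in Ob + CUR and 3.80, 2.66 and 1.23 CPM in Ob + RSV. Th, the rate-limiting enzyme of dopamine synthesis, had 42.1 and 36.2 CPM in Ob + EAE and 48.4, 56.8 and 37.4 CPM in Ob, so the groups overlapped. Drd2 is also carried by dopamine neurons. The mean deviation of the list was 0.37 and 0.30 in the Ob + EAE libraries (Drd2 at 21.7 and 20.0 CPM), −0.01 in Ob + RSV replicate 1 (Drd2 at 21.6 CPM) and 0.45 in C replicate 1 (Drd2 at 14.4 CPM). The part of dopamine neurons in the Drd2 values was not tested. The cortex and hippocampus list, led by Camk2a, Cck and Prox1, ran from 420.7 CPM in Ob replicate 3 to 683.3 CPM in C replicate 1. The choroid plexus list, led by Enpp2, Clic6 and Kl, ran from 126.2 to 213.1 CPM. The anterior pituitary list of 6 genes, led by Tshb, Prl and Pou1f1, summed to at most 7.24 CPM.

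The genes whose pattern was most like the mean standardised profile of the 7 were not striatal markers. Of 18872 genes with at least 10 reads per library on average, the 10 with the highest Pearson's r over the 12 libraries were Psap (0.97), Wdr91 (0.97), Gm9826 (0.95), Nacc1 (0.94), Fcgrt (0.94), Spats2 (0.93), AC158568.2 (0.93), Cd248 (0.93), Eef2 (0.92) and Usp3 (0.92). These values are descriptions of the ranking. Of the other 29 projection neuron genes 0 were among the first 100, the best being Syndig1l at rank 242 (r = 0.78), and 58.6% had r above 0, against 50.5% of all ranked genes. The profile itself was carried by part of the genes, since r with it was 0.80 for Adora2a, 0.80 for Drd2, 0.74 for Gpr6 and 0.54 for Ppp1r1b, but 0.15 for Rgs9, 0.04 for Pde10a and −0.21 for Drd1.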

How the data were processed

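Poly(A) RNA of the hypothalamus was sequenced as stranded paired-end libraries. The authors deposited raw counts per gene ID for 12 libraries, for which the study names HISAT2 and featureCounts and the submitters add FastQC and the build GRCm39. The sources used here give no annotation release, strand setting or treatment of multi-mapping reads. Totals were 15655156 to 26284661 counts per library, and intervals and floors cover counting error only where they rest on reads. Symbols were found for 51486 of 78334 IDs (65.7%, with 98.1% of counts). Exon lengths and gene spans came from GENCODE vM21 by ID, and promoters from RefSeq (GRCm38.p6), another build than that of the counts.

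CPM were computed on all counted reads. edgeR 4.0.16 (R 4.3.3, TMM, quasi-likelihood, genes with at least 10 reads in total) was fitted to the 9 libraries of Ob + RSV, Ob and C (6 residual degrees of freedom), and to all 12 for Ob + EAE vs. Ob (7), with Benjamini-Hochberg adjustment over all genes tested. A call needed an adjusted p under 0.05 and an absolute log2FC of at least 1. SE is the absolute log2FC over the root of F, and 95% intervals are 1.96 SE each way. Correlations used log2(CPM + 1) and 100000 permutations. DESeq2 1.42.0, other scalings and filters, a replicate block, other sets of libraries and leaving out single libraries were the alternatives. In the fits, only libraries of the groups compared were left out singly. The fits were tested on simulated data. Python 3.11.15, pandas 2.3.3, numpy 2.4.6, scipy 1.17.1 and matplotlib 3.10.9 were used.

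The 7 genes and the 11 lists beside them were chosen with earlier results of these data known, and 1 of the lists is not reported here. Genes named beside the 7 are the 3 most abundant of each list, the 4 of the other projection neuron genes with the smallest p in each comparison and the 10 most like the mean profile. Others (Pde4d, Slc6a3, Lhx8, Lhx6, Gbx1, Chat, Slc5a7, Slc18a3, Npy, Gbx2, Syndig1l) were named after their values were seen. Gpr52 and Gh1 of the lists are not analysed here.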

Additional observations from a re-analysis of the deposited data

How the results depend on the processing

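The count of called genes among the 7 was 0 in all 4 comparisons under every scaling, filter, tool and set of libraries tried, except that 1 (Pde10a) was called in Ob + EAE vs. Ob without Ob replicate 3, a range of 0 to 1 over the libraries left out. The fit without Ob replicate 3 called 1172 of all 35653 genes, against 665 of 36164 in the main fit. With the replicate block the count among the 7 was 0 in each comparison. The labels do not link same-numbered libraries, and their deviations correlated at over 0.1 in 4 of 9 pairs (up to 0.33), against 1 of 18 other pairs, so a link was neither given nor present in every pair. With the block, the genes called of all tested were 50 in Ob vs. C, 10 for Ob + RSV against Ob and 35 for Ob + RSV against C, each 0 without it, and 1417 in Ob + EAE vs. Ob, against 665 without it and 905 with DESeq2. In Ob + EAE vs. Ob the block gave Pde10a a log2FC of 0.94 (edgeR adjusted p = 0.000443) and Ppp1r1b −0.84 (adjusted p = 0.0216), both under the minimum of 1. Of 406 alternative log2FC of the 7 genes, 374 kept their sign and side of the threshold, 1 gained a call and 31 changed sign, 23 of them among 161 that left out 1 library. The median rho of 0.049 between the genes was −0.036 to 0.15 with 1 library left out, −0.10 without the 3 libraries with the fewest detected genes and −0.030 without both Ob + EAE libraries. These last 2 settings, the balance of long and short genes and all alternatives of the 2 gene pairs were chosen after seeing the data.

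With 1 library left out, the log2FC that changed sign ran as follows. In Ob vs. C they were −0.47 to 0.34 for Drd1, −0.11 to 0.25 for Drd2 and −0.41 to 0.19 for Gpr6. In Ob + RSV vs. Ob they were −0.25 to 0.33 for Drd2, −0.44 to 0.42 for Adora2a, −0.49 to 0.012 for Ppp1r1b, −0.91 to 0.00098 for Gpr6 and −0.12 to 0.25 for Pde10a. In Ob + RSV vs. C they were −0.14 to 0.45 for Drd2 and −0.16 to 0.36 for Ppp1r1b, and in Ob + EAE vs. Ob −0.47 to 0.35 for Drd1. Without the 3 libraries with the fewest detected genes, signs changed in Ob vs. C for Drd1 (0.19) and Drd2 (−0.095), for Ob + RSV against Ob with Adora2a (0.74), Ppp1r1b (0.17), Gpr6 (0.27) and Pde10a (−0.16), and for Ob + RSV against C with Gpr6 (0.14). With the replicate block that of Drd1 in Ob + EAE vs. Ob was 0.13. None of these passed the threshold, and the cause was not tested. Depth limits Adora2a most, at 13 to 71 reads per library.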
